A study of Mus musculus with 16 samples.

Results

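The proteasome genes of cultured mouse CD8+ T cells were followed across 4 media. Members were the gene symbols that begin with Psm, a letter from a to g and a digit, with a mean of at least 10 depth-normalized reads over 16 libraries. Of 17159 genes in the table, 49 symbols matched the pattern and 48 had that level. The 48 members were 7 alpha and 7 constitutive beta subunits of the core particle, 3 immunosubunits and 1 thymus subunit. They also held 6 ATPases and 11 other subunits of the regulatory particle, 4 activators, 1 inhibitor, 3 assembly chaperones of the regulatory particle and 4 of the core particle. The remaining member, Psmc3ip, matched by spelling alone: it encodes a recombination factor of meiosis and no part of the proteasome, which leaves 47 proteasome genes. At the edge of the rule, Psmb11, the thymus subunit, was just inside with a mean of 20.6 reads, and Psma8, the alpha subunit of the testis, was just outside with 7.63.

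The proteasome degrades proteins that carry a ubiquitin chain. Its core particle is a barrel of alpha rings outside and beta rings inside, and the beta subunits encoded by Psmb5, Psmb6 and Psmb7 hold the proteolytic sites. The regulatory particle caps the barrel: its ATPases unfold the substrate, and its other subunits bind ubiquitin, remove it and hold the parts together. In immune cells the interferon-inducible subunits encoded by Psmb8, Psmb9 and Psmb10 take the places of Psmb5, Psmb6 and Psmb7, and the PA28 cap encoded by Psme1 and Psme2 can replace the regulatory particle. These forms favour the peptides that MHC class I molecules present. T cells make much of them and need protein breakdown when they divide.

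CD8+ T cells of strain C57BL/6 were activated with antibodies to CD3 and CD28 for 2 days and then kept in 1 of 4 media for 36 h. Sup+ was conditioned medium of B16F10, a mouse melanoma line, with methionine added (supplemented supernatant), and Sup- was the same conditioned medium with none added (supernatant). The medium called fresh- was fresh and lacked methionine (methionine-free medium), and fresh+ was fresh and contained it (complete medium). Each medium had 4 libraries, numbered 0 to 3. The methionine left in the supernatant is not stated, nor do the labels say if the 4 libraries are of different animals or cultures, so p-values measure the spread between libraries.

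The libraries held 25.8 to 42.3 M reads. Levels are given as depth-normalized reads, the authors' values scaled between libraries, which do not account for transcript length. The CD8 T cell markers examined (Cd3d, Cd3e, Cd8a and Cd8b1) summed to at least 62312 reads in every library, and Cd4 stood at 134 to 200.2 reads. Of the 4 CD8 markers, 1 rose and 2 fell in methionine-free against complete medium, with log2 changes from -0.83 to 0.32. Of 4 B cell markers, 2 were high enough to test. Their list summed to 10.4 to 21.5 reads in supplemented supernatant, 31.7 to 54.7 in supernatant, 43.5 to 55.5 in methionine-free medium and 11.3 to 14.8 in complete medium. The sum of 3 NK cell markers was 2353 to 2471, 1824 to 1978, 1204 to 1393 and 1092 to 1161 reads in the same order of media. Single NK markers moved apart: in methionine-free against complete medium 1 rose and 1 fell, with log2 changes from -2.03 to 0.80. In the same order, the sum of 4 myeloid markers was 26.4 to 44.2, 63.6 to 78.6, 52.8 to 68.2 and 42.3 to 61.2 reads. Itgam, the 1 high enough to test, fell by 1.31 with methionine added to supernatant. Melanoma markers summed to 91.0 to 143.7, 231 to 257, 257 to 282 and 103 to 134 reads in this order, higher in both media without added methionine, and of the 3 tested Pmel (2.57) and Mitf rose and Tyr (-0.70) fell in methionine-free against complete medium. In the melanoma list Mlana stood at 0 in every library of supplemented supernatant, Tyrp1 in methionine-free medium, and Dct and Tyrp1 in complete medium. The part of these other cells in the results below was not tested. In bulk RNA, fewer cells of a type and less RNA per cell cannot be told apart.

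Most proteasome genes were lower where methionine was not supplied, and a small set was higher. A call needed an adjusted p (Benjamini and Hochberg's method over the 12469 genes that entered limma) under 0.05 and no minimum fold. In methionine-free against complete medium, 7 of 48 members rose and 37 fell, with 43.3% of all genes called higher and 42.3% called lower. The members' median log2 fold change was -0.54, beside 0.01 over all genes. In supernatant against complete medium, 7 rose and 37 fell, with backgrounds of 43.0% and 42.5%, and the median was -0.56. Both of these comparisons use the same complete medium libraries. When methionine was added to supernatant, 41 rose and 4 fell against 41.8% in each direction over all genes, with a median of 0.48. The supernatant libraries here are those already compared with complete medium. Supplemented supernatant against complete medium gave 15 higher and 20 lower members, with 32.5% in each direction over all genes and a median of -0.02, and the share of higher members was near the background. Supernatant against methionine-free medium gave 4 higher and 5 lower members, beside backgrounds of 14.0% and 12.9%. The methionine effect differed between supernatant and fresh medium for 28 members, 12 with a higher and 16 with a lower log2 value in supernatant, beside 27.6% and 25.0% of all genes. The libraries of the 2 media compared did not overlap for 43, 44, 45, 27 and 9 of the 48 members in the 5 comparisons between media, beside 81.3%, 80.0%, 78.1%, 56.1% and 28.7% of all genes.

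**Figure D1:**
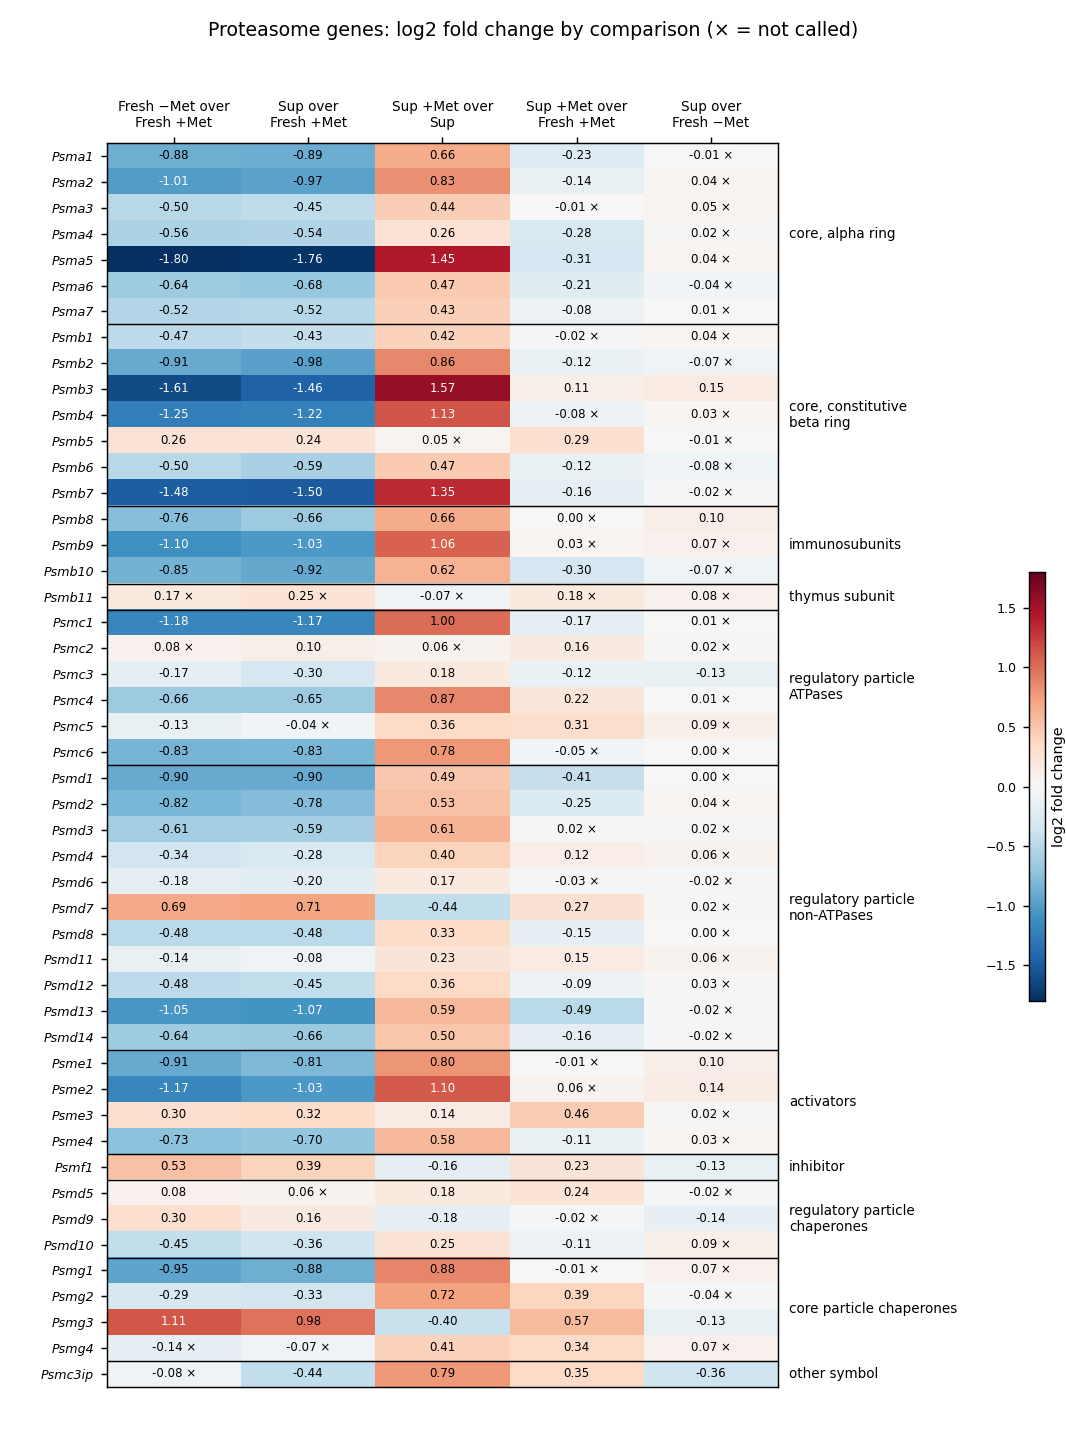
Log2 fold change of the 48 members (rows, by role) in 5 comparisons (columns), from 4 libraries per medium; Sup is supernatant with no methionine added, Met is methionine, and a cross marks a change that was not called. Blue fills most of the left 2 columns, with Psma5 at -1.80 and -1.76, while Psmd7 and Psmg3 are red there, and for most genes the colour turns round in the middle column.

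Scaling the libraries to total reads in place of the authors' factors shifted the median gene's log2 fold change to 0.17 for methionine-free over complete medium, 0.15 for supernatant over complete medium and -0.14 for methionine addition to supernatant. Changes below are relative to the median gene, and those under about 0.17 in size hold only relative to that scaling. Log2 values are of reads plus 1. The second deposited table, in FPKM, gave fewer calls over all genes (2856 higher and 3509 lower of 10944 tested in methionine-free against complete medium). Same-numbered libraries deviated together in FPKM, and with the replicate number as a block 4080 were called higher and 4696 lower. Of the members called in methionine-free against complete medium, Psma3, Psmb5, Psmc3, Psmc5, Psmd5, Psmd6, Psmd9, Psmd11 and Psmg2 were not called in FPKM without the block, and of these Psmb5 and Psmd5 were not called with it. Of those called with methionine added to supernatant, Psma3, Psma4, Psma6, Psmc3, Psmd5, Psmd6, Psmd9, Psmd10, Psme3, Psmf1 and Psmg3 were not called without the block, and of these Psmd9, Psme3 and Psmf1 were not called with it.

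All 7 alpha subunit genes of the core fell in methionine-free medium and in supernatant, and all 7 rose when methionine was added. Over all genes these shares were 42.3%, 42.5% and 41.8%. Psma5 changed most. Psma5 had 5703, 5799, 6246 and 5865 reads in supplemented supernatant, 2176, 2167, 2224 and 2091 in supernatant, 2026, 2149, 2010.0 and 2236 in methionine-free medium, and 7565, 7138, 7240.0 and 7366 in complete medium. The groups with and without supplied methionine were far apart, by 1.80 (SE 0.036, adjusted p 5.71e-30 in limma) in methionine-free against complete medium, while supernatant and methionine-free medium overlapped. Psma2 had 8550.5, 8868, 9136 and 8455 reads in supplemented supernatant, 4982, 5049, 4895 and 4782 in supernatant, 4659, 4689, 4877 and 4981 in methionine-free medium, and 10014, 9393, 9526 and 9629.9 in complete medium. It fell by 1.01 and 0.97 in the 2 media without added methionine and rose by 0.83 with the addition. Psma6 had 5546, 5505, 5738 and 5664 reads in supplemented supernatant, 4171, 3931, 4015 and 4109 in supernatant, 3991, 4314, 4064 and 4359 in methionine-free medium, and 6681, 6462, 6495 and 6408 in complete medium. Psma4 had 5987, 6036, 6141 and 6051 reads in supplemented supernatant, 5146, 4931, 5133 and 5000.1 in supernatant, 4743, 4910.0, 4933 and 5326 in methionine-free medium, and 7757, 7313, 7179.7 and 7147 in complete medium. Both were lowest in the media without added methionine, and in supplemented supernatant both stayed below complete medium with no overlap. Psma4 rose by 0.26 with the addition, the smallest rise of the alpha ring. Psma3 had 6615, 6637, 7088 and 6719 reads in supplemented supernatant, 5039, 5001, 4887 and 5005 in supernatant, 4733, 4631, 4827 and 5088 in methionine-free medium, and 7245, 6865, 6532 and 6639 in complete medium. Psma7 had 6798, 6754, 6753 and 6409 reads in supplemented supernatant, 5047, 5212, 4717 and 4826 in supernatant, 4895, 4820.0, 4909.9 and 5068 in methionine-free medium, and 7299.6, 7061, 7207 and 6769.5 in complete medium. These fell by 0.50 and 0.52 in methionine-free medium, the smallest falls of the alpha genes. The remaining alpha gene, Psma1, stood at 7558 to 8025 reads in supplemented supernatant, 4694 to 5120.2 in supernatant, 4823 to 5254 in methionine-free medium and 8972 to 9366 in complete medium, and fell by 0.88. In the FPKM table the fall of Psma3 in methionine-free medium (-0.38, adjusted p 0.289) and its rise with added methionine (0.46, adjusted p 0.211) were not called, nor were the rises of Psma4 (0.30, adjusted p 0.234) and Psma6 (0.41, adjusted p 0.0906). With the replicate block all 4 of these changes were called (adjusted p 0.00326 and 0.000922 for Psma3, 0.00493 for Psma4 and 2.41e-05 for Psma6).

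Of 7 constitutive beta subunit genes, 6 fell in both media without added methionine and Psmb5 rose. Over all genes, 42.3% fell in methionine-free medium and 42.5% in supernatant. Psmb3, a structural beta subunit, and Psmb7, which carries the trypsin-like site, fell most. Psmb3 had 7019, 6918, 7628 and 6408 reads in supplemented supernatant, 2306, 2453, 2377 and 2282 in supernatant, 2091, 2042, 2196 and 2138 in methionine-free medium, and 6686, 6481, 6421 and 6346 in complete medium. Psmb7 had 5555, 5576, 5822 and 5410.3 reads in supplemented supernatant, 2177, 2207, 2226 and 2176 in supernatant, 2134, 2236, 2248 and 2288 in methionine-free medium, and 6604, 6249.9, 6191 and 5901 in complete medium. In methionine-free against complete medium they fell by 1.61 (SE 0.039) and 1.48 (SE 0.034), and added methionine raised them by 1.57 and 1.35. The Psmb7 exons share 405 bases with Nek6 on the opposite strand, which averaged 2021 reads over the 16 libraries. The strand of counting is not stated, so some reads cannot be told apart. Psmb6, with the caspase-like site, had 4135, 4248, 4404 and 4009 reads in supplemented supernatant, 3099, 3002, 2955 and 3041 in supernatant, 3195, 3187, 3185 and 3249.7 in methionine-free medium, and 4671, 4609, 4361 and 4551 in complete medium. Psmb1, another structural subunit, had 8213, 8351, 8582 and 7859 reads in supplemented supernatant, 6199, 6016, 6125 and 6381 in supernatant, 5849, 5974, 5964 and 6242 in methionine-free medium, and 8519.9, 8396, 8306 and 8127 in complete medium. These fell by 0.50 and 0.47. Psmb4 fell by 1.25, with 3300.3 to 3634 reads in methionine-free medium, against 7674 to 8899 in complete medium. Psmb2 fell by 0.91, with 3682 to 3878 reads in methionine-free medium, against 6653 to 7436 in complete medium.

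Psmb5 encodes the subunit with the chymotrypsin-like site, and it went against the rest of its ring. Psmb5 had 4001, 4358, 4287 and 4039 reads in supplemented supernatant, 4060.3, 4061, 3951 and 4049 in supernatant, 4088, 3823, 4131 and 4237 in methionine-free medium, and 3576, 3501, 3257 and 3289 in complete medium. Complete medium was the lowest of the 4 and overlapped none of the others, which overlapped each other. Psmb5 rose by 0.26 (SE 0.037, adjusted p 1.03e-07) in methionine-free medium and by 0.24 in supernatant. Methionine added to supernatant gave 0.05 (adjusted p 0.213), which was not called, and -0.08 (adjusted p 0.0338), called lower, with total-read scaling. In the FPKM table the rises were 0.09 (adjusted p 0.736, or 0.367 with a replicate block) and 0.15 (0.557, or 0.133), and neither was called.

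**Figure D2:**
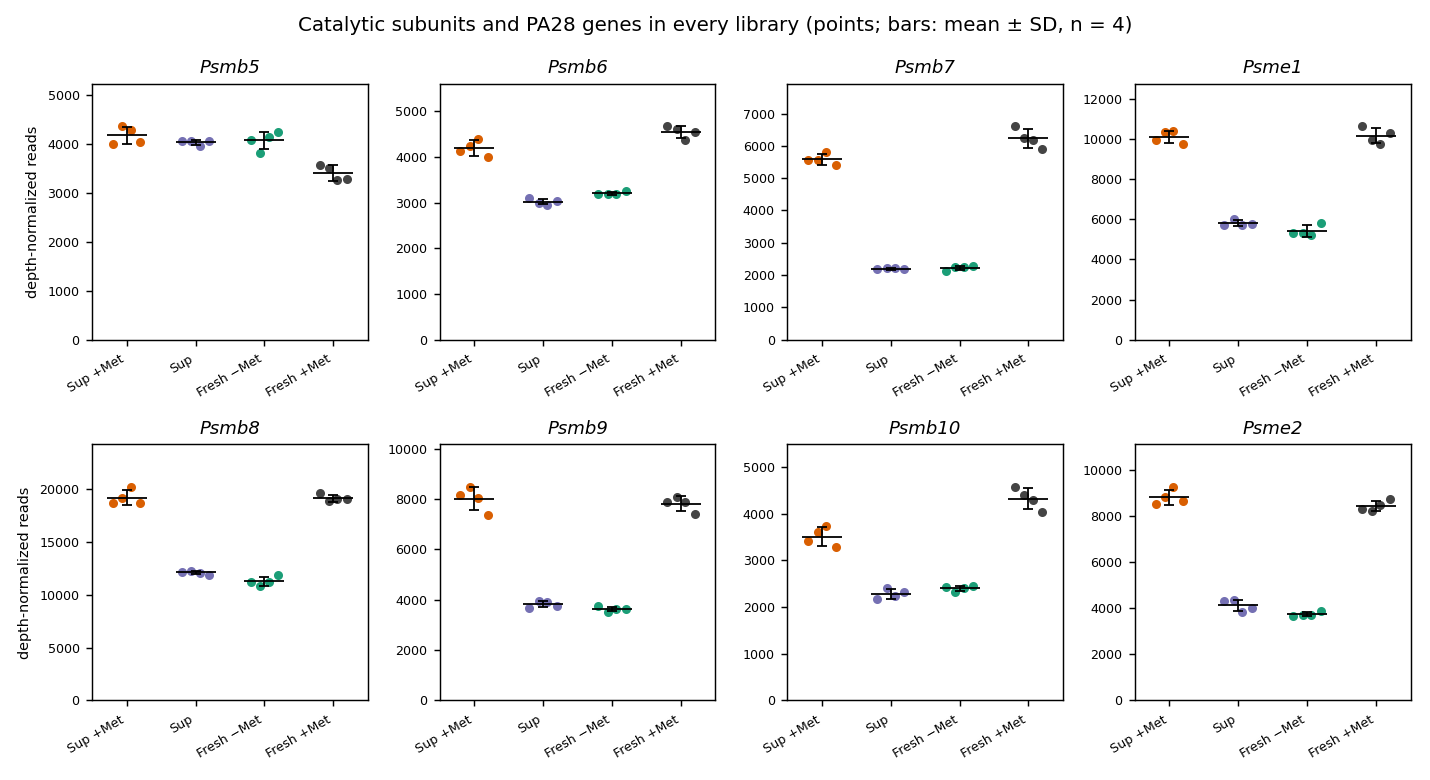
Depth-normalized reads of the genes of 3 catalytic subunits, the 3 immunosubunits and the 2 PA28 subunits in every library of the 4 media (Sup is supernatant with no methionine added), with the mean and SD. All but Psmb5 are lower in supernatant and methionine-free medium than in the media with supplied methionine, and Psmb5 is lowest in complete medium.

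Promoter sequences of Psmb5, Psmb6, Psma5 and Psmb9 are shown because Psmb5 rose where the other 3 fell. RefSeq windows on GRCm38.p6, from 250 bases before to 50 bases after a gene's start, were found for 41 of the 48 members. They were searched on both strands for TGACNNNGC, the core of the antioxidant response element through which NRF1 and NRF2 act, for GAAANNGAA, the core of the interferon-stimulated element, and for CCAAT. Capitals mark a match, and each sequence reads 5′ to 3′ along the gene's strand. The Psmb5 window is chr14:54617946-54618245 on the minus strand, that of Psmb6 chr11:70525107-70525406 on the plus strand, that of Psma5 chr3:108256676-108256975 on the plus strand and that of Psmb9 chr17:34187281-34187580 on the minus strand.
Psmb5: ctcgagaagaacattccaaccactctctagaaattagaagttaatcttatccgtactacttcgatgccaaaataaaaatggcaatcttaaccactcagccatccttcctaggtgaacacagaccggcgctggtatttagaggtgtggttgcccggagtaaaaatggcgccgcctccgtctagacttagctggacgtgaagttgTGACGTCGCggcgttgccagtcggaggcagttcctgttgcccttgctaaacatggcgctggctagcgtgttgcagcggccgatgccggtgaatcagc
Psmb6: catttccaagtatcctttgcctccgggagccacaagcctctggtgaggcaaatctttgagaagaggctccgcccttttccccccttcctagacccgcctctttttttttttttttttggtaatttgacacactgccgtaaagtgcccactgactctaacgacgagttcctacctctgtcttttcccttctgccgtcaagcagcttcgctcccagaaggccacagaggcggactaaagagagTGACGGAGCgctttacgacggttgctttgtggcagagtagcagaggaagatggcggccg
Psma5: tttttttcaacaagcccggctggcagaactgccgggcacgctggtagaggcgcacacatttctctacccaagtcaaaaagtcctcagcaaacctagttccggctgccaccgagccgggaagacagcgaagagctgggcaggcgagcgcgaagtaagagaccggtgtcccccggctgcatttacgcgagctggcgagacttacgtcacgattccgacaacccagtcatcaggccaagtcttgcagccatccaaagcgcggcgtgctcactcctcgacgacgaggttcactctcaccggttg
Psmb9: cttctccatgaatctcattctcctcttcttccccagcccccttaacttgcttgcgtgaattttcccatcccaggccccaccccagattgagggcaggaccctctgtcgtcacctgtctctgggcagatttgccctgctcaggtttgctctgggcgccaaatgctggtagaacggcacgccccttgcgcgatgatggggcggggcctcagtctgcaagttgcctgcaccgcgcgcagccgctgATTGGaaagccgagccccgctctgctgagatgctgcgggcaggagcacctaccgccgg
The element TGACNNNGC stood in the windows of both Psmb5 and Psmb6, one of which rose and the other fell. It was in 6 of 41 members (14.6%: Psmb5, Psmb6, Psmc6, Psmd12, Psme4 and Psmd9) and in 14.0% of all 27025 symbols with a window. GAAANNGAA was in 7 members (17.1%: Psmb3, Psmb4, Psmc2, Psmd4, Psme1, Psmd9 and Psmg4) and in 9.76% of symbols. CCAAT was in 15 members (36.6%) and in 41.1% of symbols, and in the Psmb9 window it lay on the other strand and reads ATTGG here. The Psma5 window held none of the 3. The windows of Psmb9 and of Tap1, the neighbouring gene on the other strand, share 275 bases (chr17:34187306-34187580). The Psmb9 window lies within the gene as placed by GENCODE (chr17:34181987-34187764), so bases before that annotated start were not searched for Psmb9. A match is a run of letters and no measured binding.

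The 3 immunosubunit genes and both PA28 genes fell together without supplied methionine and rose with it. Over all genes, 42.3% fell in methionine-free medium, 42.5% fell in supernatant and 41.8% rose with the addition. Psmb8, the immune counterpart of Psmb5, lies at chr17:34197721-34201454 and Psmb9, that of Psmb6, at chr17:34181987-34187764, within the MHC locus. Psmb10, the counterpart of Psmb7, lies at chr8:105935735-105938444. Psmb8 had 18682, 19195, 20187 and 18687 reads in supplemented supernatant, 12196, 12276, 12067 and 11903 in supernatant, 11205, 10871, 11162 and 11897 in methionine-free medium, and 19582, 18875, 19030.2 and 19026 in complete medium. Psmb9 had 8147, 8479, 8052 and 7375 reads in supplemented supernatant, 3690.5, 3969.7, 3903 and 3756 in supernatant, 3749, 3534, 3641 and 3635 in methionine-free medium, and 7897, 8076, 7892 and 7397 in complete medium. Psmb10 had 3426, 3605, 3730.3 and 3285 reads in supplemented supernatant, 2175, 2411, 2234 and 2323 in supernatant, 2423, 2324, 2409 and 2457 in methionine-free medium, and 4571, 4393, 4286 and 4042 in complete medium. In each, the 8 libraries with supplied methionine lay above the 8 without. Methionine-free against complete medium gave falls of 0.76 for Psmb8 (SE 0.03, adjusted p 6.23e-22), 1.10 for Psmb9 and 0.85 for Psmb10. Added methionine brought Psmb8 and Psmb9 to levels not called different from complete medium (0.00, SE 0.03, adjusted p 0.919, and 0.03, SE 0.036, adjusted p 0.409), while Psmb10 stayed lower by 0.30. The Psmb9 exons share 212 bases with Tap1 on the opposite strand, and the strand of counting is not stated, so some reads cannot be told apart. Tap1 stood at 17432 to 17758 reads in methionine-free and 20754 to 21879 in complete medium, a fall of 0.29.

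Both PA28 genes were likewise lower in the media without added methionine. Psme1 (PA28 alpha, chr14:55578123-55581529) had 9938, 10344, 10374 and 9755 reads in supplemented supernatant, 5734, 6015, 5700.3 and 5751 in supernatant, 5294, 5293, 5213 and 5827 in methionine-free medium, and 10623, 9932, 9765 and 10308 in complete medium. Psme2 (PA28 beta, chr14:55587441-55591113) had 8524, 8829, 9264 and 8679.5 reads in supplemented supernatant, 4298, 4366, 3823 and 4016 in supernatant, 3682, 3716, 3727 and 3884 in methionine-free medium, and 8329.8, 8235, 8467 and 8732 in complete medium. They fell by 0.91 and 1.17 in methionine-free medium, and in supplemented supernatant neither was called against complete medium (-0.01, adjusted p 0.862, and 0.06, adjusted p 0.118). Psme2 was called higher there by 0.08 with total-read scaling (adjusted p 0.0459) and by 0.09 with quantile normalization (adjusted p 0.0288).

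The ratio of each immunosubunit to its constitutive counterpart compares 2 genes within a library, and its change does not depend on the scaling between libraries. The log2 ratio of Psmb8 to Psmb5 was 2.22, 2.14, 2.24 and 2.21 in supplemented supernatant and 1.59, 1.60, 1.61 and 1.56 in supernatant. It was 1.45, 1.51, 1.43 and 1.49 in methionine-free medium, against 2.45, 2.43, 2.55 and 2.53 in complete medium. No groups overlapped, and the ratio fell by 1.02 in methionine-free medium. That of Psmb9 to Psmb6 averaged 0.93 ± 0.066 in supplemented supernatant, 0.34 ± 0.075 in supernatant, 0.18 ± 0.036 in methionine-free medium and 0.78 ± 0.067 in complete medium (SD, n = 4). The third pair went the other way: Psmb10 to Psmb7 averaged -0.67 ± 0.043, 0.06 ± 0.065, 0.11 ± 0.053 and -0.53 ± 0.015 (SD, n = 4) in the same order of media. Methionine-free against complete medium raised it by 0.64, and Psmb7 fell further than Psmb10. An exact two-sided permutation test of 4 against 4 libraries gave p = 0.0286, the smallest it allows, in 14 of 15 tests (3 pairs in 5 comparisons; adjusted p 0.0306). The exception was Psmb10 to Psmb7 in supernatant against methionine-free medium, with a difference of -0.05 and an exact p of 0.229. In FPKM, the mean ratio of Psmb8 to Psmb5 was 2.36 ± 0.19, 1.60 ± 0.245, 1.54 ± 0.152 and 2.94 ± 0.164, so the transcript of the immunosubunit was the more abundant per length in all 4 media. For Psmb9 to Psmb6 it was 2.59 ± 0.363, 1.67 ± 0.217, 1.52 ± 0.195 and 2.36 ± 0.205, again above 1 in every medium. For Psmb10 to Psmb7 it was 0.589 ± 0.115, 0.947 ± 0.251, 0.889 ± 0.199 and 0.640 ± 0.103 (SD, n = 4). These means were below 1, and single libraries reached 1.30 in supernatant and 1.13 in methionine-free medium.

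**Figure D3:**
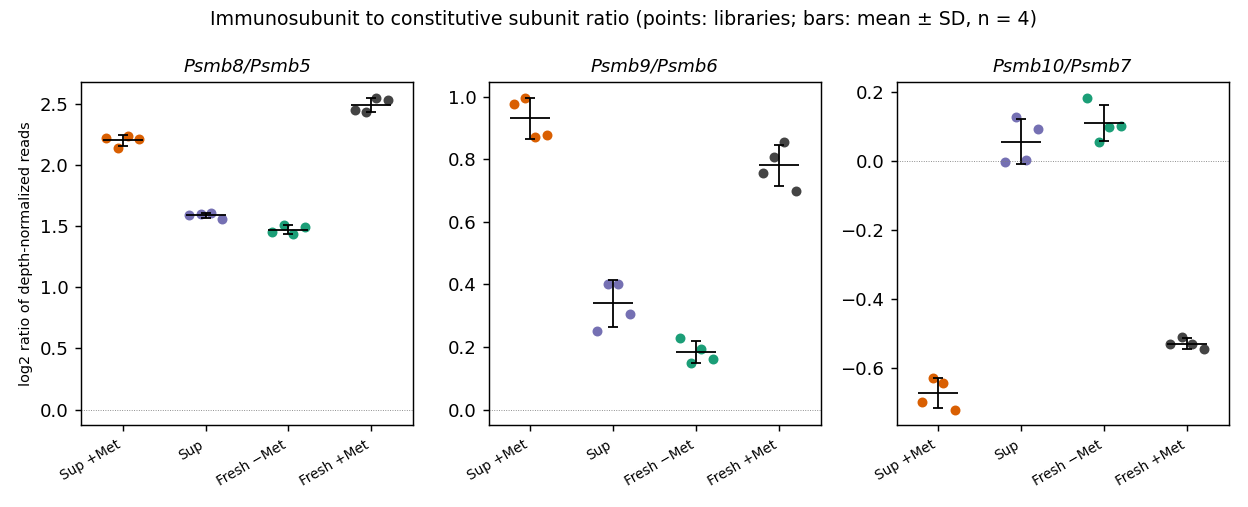
Log2 ratio of each immunosubunit gene to its constitutive counterpart, from depth-normalized reads, in every library of the 4 media (Sup is supernatant with no methionine added), with the mean and SD. The first 2 ratios are lower where methionine was not supplied, and Psmb10 to Psmb7 is higher there, at 0.06 and 0.11 against -0.67 and -0.53.

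Subunits of one barrel are needed in equal numbers, and their transcript levels per length were compared in FPKM, in which the library total also differed between media (456139 to 492267 in the media without added methionine, 582225 to 644598 in the other 2). With supplied methionine, Psmb3 was the highest of 14 core genes, at 473 ± 63.2 FPKM in supplemented supernatant and 446 ± 39.4 in complete medium (SD, n = 4). In supernatant it was the 8th at 152 ± 17.1 and in methionine-free medium the 9th at 135 ± 16.7. Psma5 was the lowest of the 14 at 57.0 ± 4.25 and 54.0 ± 2.97 FPKM in these 2 media, against 161 ± 3.20 in supplemented supernatant and 201 ± 13.5 in complete medium. Psmb7 was the 13th without added methionine, at 67.6 ± 7.60 and 72.1 ± 5.68. Psmb5 was 7th, 2nd, 3rd and 12th in supplemented supernatant, supernatant, methionine-free and complete medium. Its levels overlapped between media, at 225 ± 33.0, 209.8 ± 62.2, 198 ± 45.3 and 184 ± 22.4 FPKM, and many neighbours in these orders differ by less than their SD. The highest mean over the lowest was 3.53, 4.08, 4.19 and 3.10 in the same order of media. In single libraries this ratio ran from 3.20 to 5.94, 4.16 to 5.19, 3.81 to 4.85 and 2.72 to 5.32, so the media overlapped.

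**Figure D4:**
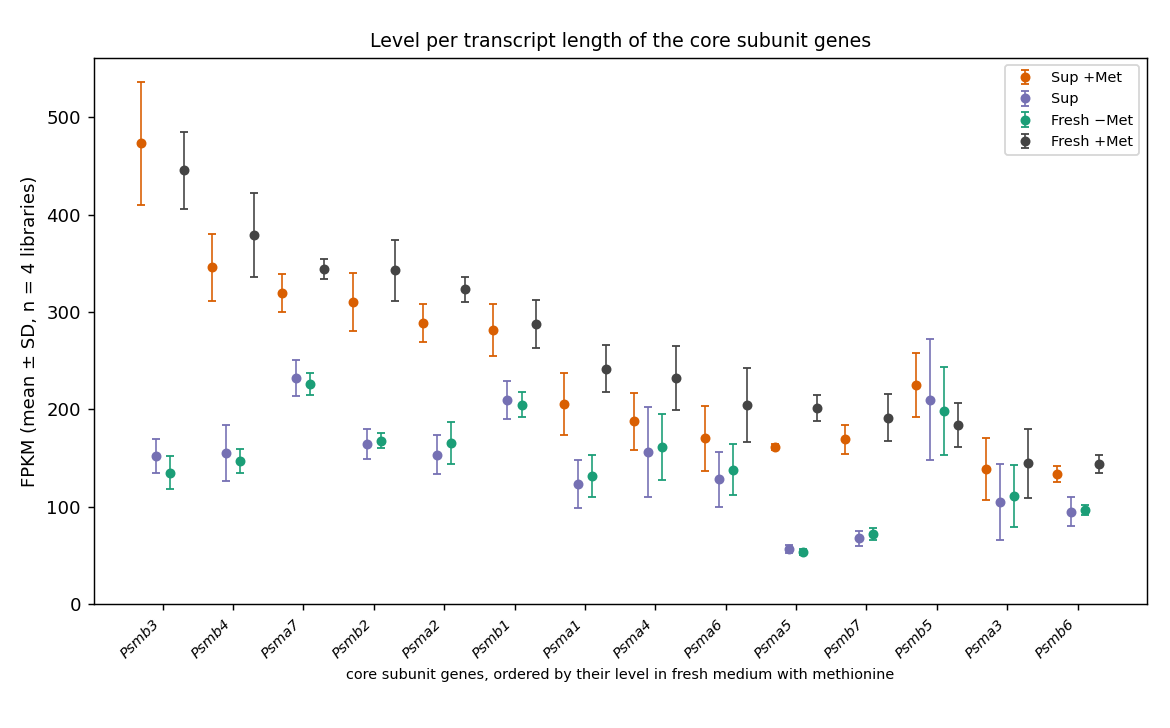
FPKM of the 14 core subunit genes, as the mean and SD of 4 libraries per medium (Sup is supernatant with no methionine added), in the order of complete medium. Psmb3 and Psma5 are well apart between media with and without supplied methionine, and the error bars of Psmb5 overlap between the 4 media.

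The 6 ATPases form the ring that unfolds substrates, and they responded unequally. In methionine-free medium 5 fell, beside 42.3% of all genes, and Psmc2 was not called (0.08, adjusted p 0.0559). Psmc1 had 6547, 6542, 6877 and 6625 reads in supplemented supernatant, 3347, 3472, 3287 and 3199.7 in supernatant, 3219, 3274, 3331 and 3412 in methionine-free medium, and 7643, 7419.8, 7268 and 7607 in complete medium. Psmc6 had 6485, 6145, 6576 and 6858 reads in supplemented supernatant, 3776, 3612, 3938 and 3833 in supernatant, 3599, 3724, 3803 and 3996 in methionine-free medium, and 6726, 6421, 6679.6 and 7102 in complete medium. Psmc4 had 5908, 5585, 5872 and 5528 reads in supplemented supernatant, 3155, 3240.3, 3077 and 3045 in supernatant, 3043, 3039, 3242 and 3126 in methionine-free medium, and 5247, 4885, 4771 and 4786 in complete medium. These 3 fell by 1.18, 0.83 and 0.66, and each rose with added methionine, Psmc4 to above its level in complete medium (0.22, adjusted p 1.84e-06). From FPKM without a replicate block, that difference of Psmc4 from complete medium was not called (0.21, adjusted p 0.539). Psmc3 had 6515, 6448, 6959 and 6308 reads in supplemented supernatant, 5808, 5857, 5754 and 5677 in supernatant, 6203, 6184, 6490.4 and 6355 in methionine-free medium, and 7311, 6782, 7036 and 7333 in complete medium. Psmc5 had 4669, 4658, 4943 and 4763 reads in supplemented supernatant, 3835, 3925, 3547 and 3555 in supernatant, 3386, 3532, 3604 and 3463 in methionine-free medium, and 3956, 3943, 3744 and 3672 in complete medium. Psmc2 had 4973, 4820.3, 5711 and 5048 reads in supplemented supernatant, 4996, 4957, 4768 and 4985 in supernatant, 4681, 4832, 4909.9 and 4991 in methionine-free medium, and 4648, 4572, 4485 and 4700.0 in complete medium. For the last 2 the groups lay close, and Psmc5 was highest in supplemented supernatant, above complete medium by 0.31. From FPKM without the block this was not called either (0.30, adjusted p 0.162). With total-read scaling Psmc5 gave 0.03 in methionine-free medium (adjusted p 0.444) and 0.10 in supernatant (adjusted p 0.00864, called higher), in place of -0.13, called lower, and -0.04, not called. The fall of Psmc3 was not called there (-0.01, adjusted p 0.673). Psmc2 was called higher in supernatant than in complete medium by 0.10, but not without replicate 2 of complete medium (0.09, adjusted p 0.0512). In methionine-free medium edgeR (0.09), quantile normalization (0.14) and scaling to total reads (0.24) called it higher, as did leaving out any one of 4 libraries in limma (0.08 to 0.09, adjusted p 0.0183 to 0.0457): replicate 0 of methionine-free medium, replicate 3 of complete medium and replicates 1 and 2 of supplemented supernatant.

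Of the 11 other subunits of the regulatory particle, 10 fell in both media without added methionine and Psmd7 rose. Over all genes, 42.3% fell in methionine-free medium and 42.5% in supernatant. Psmd7, the partner of the deubiquitinating subunit encoded by Psmd14, had 4722, 4561, 5156 and 4888 reads in supplemented supernatant, 6701, 6409, 6659.6 and 6388 in supernatant, 6128, 6316, 6679 and 6732 in methionine-free medium, and 4003, 3923, 3837 and 4291 in complete medium. The media without added methionine lay above the others, by 0.69 (SE 0.038, adjusted p 1e-17) for methionine-free against complete medium, and the addition lowered it by 0.44. Psmd14 itself had 5132, 5123, 5661 and 5177 reads in supplemented supernatant, 3886, 3709, 3726 and 3570.1 in supernatant, 3671, 3826, 3802 and 3823 in methionine-free medium, and 6133, 5725, 5823 and 5885 in complete medium. It fell by 0.64, so the genes of this pair of subunits moved in opposite directions. Psmd13, of the lid of the particle, had 4324, 4367, 4535 and 4449 reads in supplemented supernatant, 2817, 3033, 3004 and 2914 in supernatant, 2951, 3019, 2985 and 3011 in methionine-free medium, and 6139, 6098, 6123 and 6429.8 in complete medium. Psmd1, a scaffold subunit of the base, had 6214, 6113, 6743 and 6481 reads in supplemented supernatant, 4552, 4726, 4522 and 4401 in supernatant, 4529, 4465, 4565 and 4606 in methionine-free medium, and 8729, 8334, 8238 and 8688 in complete medium. They fell by 1.05 and 0.90, and in supplemented supernatant they remained 0.49 and 0.41 lower than in complete medium. Psmd13 shares 342 exon bases with Sirt3 on the opposite strand.

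Values also follow for the lid subunits encoded by Psmd3, Psmd6 and Psmd11. Psmd3 had 7094, 6741, 7261 and 6734 reads in supplemented supernatant, 4499, 4775, 4486 and 4471 in supernatant, 4515, 4315, 4493 and 4699 in methionine-free medium, and 7030.0, 7217, 6946 and 6338 in complete medium. It fell by 0.61 and came back to within 0.02 (adjusted p 0.709) of complete medium. Psmd6 had 2913, 2806, 3156 and 3087 reads in supplemented supernatant, 2724, 2668, 2685 and 2554 in supernatant, 2584, 2661, 2656 and 2864 in methionine-free medium, and 3131, 2958, 2998 and 3083 in complete medium. Psmd11 had 4271, 4141, 4288 and 4403 reads in supplemented supernatant, 3683, 3701, 3679 and 3519.9 in supernatant, 3459, 3588, 3519 and 3452 in methionine-free medium, and 3878, 3852, 3790.0 and 3926 in complete medium. Their falls of 0.18 and 0.14 in methionine-free medium were not called when scaled to total reads (-0.02, adjusted p 0.652, and 0.02, adjusted p 0.54). In supernatant Psmd11 fell by 0.08, which gave 0.06 with that scaling and was not called without replicate 3 of supernatant (-0.07, adjusted p 0.0593). Psmd2, the other scaffold subunit, stood at 8079.8 to 8490.3 reads in methionine-free and 14494 to 14890.0 in complete medium. It fell by 0.82, and Psmd4 (a ubiquitin receptor), Psmd8 and Psmd12 fell by 0.34, 0.48 and 0.48.

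Among caps and inhibitors, Psme3 and Psmf1 rose where PA28 alpha and beta fell. Psme3, which encodes the nuclear PA28 gamma cap, had 11004, 10564, 11286 and 11093 reads in supplemented supernatant, 10091, 10404, 9603 and 9825 in supernatant, 9539.6, 9714, 10170.0 and 9853 in methionine-free medium, and 8315, 8331, 7571 and 7695 in complete medium. It rose by 0.30 (SE 0.033, adjusted p 5.46e-10) in methionine-free medium, and unlike Psmd7 it was called higher again with added methionine (0.14, adjusted p 0.000311). Scaling to total reads (0.01, adjusted p 0.845) and quantile normalization (-0.02, adjusted p 0.551) did not call that last rise. Psme4, the PA200 cap, had 5558, 5645, 5571 and 5964 reads in supplemented supernatant, 3788, 3678, 3899 and 3792 in supernatant, 3635, 3856, 3661 and 3651 in methionine-free medium, and 6054, 5811, 6204 and 6541 in complete medium. It fell by 0.73. Psmf1, which encodes the inhibitor PI31, had 2458, 2482, 2465 and 2349.8 reads in supplemented supernatant, 2729, 2625, 2781 and 2766 in supernatant, 2919.6, 3009, 3057 and 2957 in methionine-free medium, and 2172, 2057, 2159.9 and 1913 in complete medium. All 4 media were apart, with the highest level in methionine-free medium (0.53 over complete medium, SE 0.038).

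The assembly chaperones did not move as one. Psmg1 to Psmg4 help to build the alpha ring. Psmg3 had 843, 947, 937 and 897 reads in supplemented supernatant, 1177, 1159.8, 1243 and 1211 in supernatant, 1314, 1272, 1302 and 1368 in methionine-free medium, and 602, 636, 601 and 591 in complete medium. It rose by 1.11 (SE 0.047, adjusted p 8.05e-21), the largest rise of all members, and fell by 0.40 with added methionine. From FPKM without a replicate block that fall was not called (-0.29, adjusted p 0.0503). The Psmg3 exons share 280 bases with Gm26938, a protein-coding gene on the same strand, so some reads cannot be told apart. Psmg1 had 1384, 1333, 1483 and 1329.8 reads in supplemented supernatant, 774, 733, 749 and 754 in supernatant, 748, 677, 752 and 688 in methionine-free medium, and 1384, 1390.0, 1433 and 1342 in complete medium. Psmg2 had 1598, 1868, 1799 and 1797 reads in supplemented supernatant, 1032, 1174, 1036 and 1039 in supernatant, 1107, 1035, 1101 and 1159 in methionine-free medium, and 1402, 1348, 1319 and 1313 in complete medium. These partners fell by 0.95 and 0.29, and with added methionine Psmg2 passed its level in complete medium (0.39). Psmg4, the partner of Psmg3, averaged 368 ± 20.5 reads in methionine-free and 407 ± 29.4 in complete medium (SD, n = 4), and was not called (-0.14, adjusted p 0.0757), but was called lower without replicate 3 of complete medium (-0.19, adjusted p 0.0208), as it was from FPKM values when blocked by replicate number (-0.24, adjusted p 0.0475). Psmd5, Psmd9 and Psmd10 help to build the regulatory particle. Psmd9 had 973, 1079, 1087 and 1045 reads in supplemented supernatant, 1203, 1186, 1121 and 1218 in supernatant, 1267, 1304, 1328 and 1312 in methionine-free medium, and 1107, 1039, 1024 and 1064 in complete medium. Psmd10 had 1048, 989.6, 1079 and 992 reads in supplemented supernatant, 839.6, 858, 865 and 887 in supernatant, 818, 812, 789.8 and 824 in methionine-free medium, and 1185, 1067, 1116 and 1068 in complete medium. They moved apart in methionine-free medium, by 0.30 and -0.45. Psmd5 had 3103, 3017, 3169.6 and 3151 reads in supplemented supernatant, 2774, 2650.4, 2811 and 2755 in supernatant, 2741, 2850.5, 2799 and 2739 in methionine-free medium, and 2683, 2436, 2603 and 2796 in complete medium. Its rise of 0.08 in methionine-free medium (adjusted p 0.0354) was lost with quantile normalization (0.05, adjusted p 0.143), in edgeR (0.08, adjusted p 0.0734) and without replicate 1 or 2 of methionine-free medium or replicate 1 or 2 of complete medium (0.05 to 0.08, adjusted p 0.0674 to 0.223).

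Psmb11 stood at 20.2, 15.4, 26.4 and 20.8 reads in supplemented supernatant, 12.3, 32.8, 23.9 and 21.7 in supernatant, 21.5, 30.7, 19.1 and 13.3 in methionine-free medium, and 22.4, 16.9, 18.0 and 14.8 in complete medium, with overlap between all media and no call in any comparison. Psmc3ip had 601, 663, 680.1 and 698 reads in supplemented supernatant, 398, 345, 374 and 416 in supernatant, 489, 499, 499.5 and 477 in methionine-free medium, and 562, 495, 493 and 523 in complete medium. It was lowest in supernatant, 0.36 below methionine-free medium, and shares 385 exon bases with Mlx. Exons of 14 of the 48 members overlap another annotated gene. Among them are Psmb8 (498 bases with Gm20496) and Psmd9 (1849 bases with Gm26745), both with a gene on the opposite strand.

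The methionine responses in fresh medium and in supernatant rest on separate libraries and can be set side by side. All 37 members that fell in methionine-free medium rose when methionine was added to supernatant, which is 90.2% of the 41 that rose. Over all genes, 83.1% of the 5275 that fell in methionine-free medium rose with the addition, which is 84.0% of the 5218 that rose. The other 4 were Psmc3ip, Psmd5, Psme3 and Psmg4. Of 7 that rose in methionine-free medium, 4 (57.1%) fell with the addition (Psmd7, Psmf1, Psmd9 and Psmg3), which is every member that did, and Psmb5, Psmd5 and Psme3 did not. Over all genes, 82.7% of the 5397 that rose fell with the addition. Across the 48 members the 2 methionine effects correlated with Pearson's r at 0.92 and Spearman's rho at 0.90, a description over genes measured in the same libraries. The effects had 1 sign for 44 members, and for 36 of these the effect in supernatant was the smaller. Over all genes tested, 10694 had effects of 1 sign, and for 61.5% of these the effect in supernatant was the smaller.

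**Figure D5:**
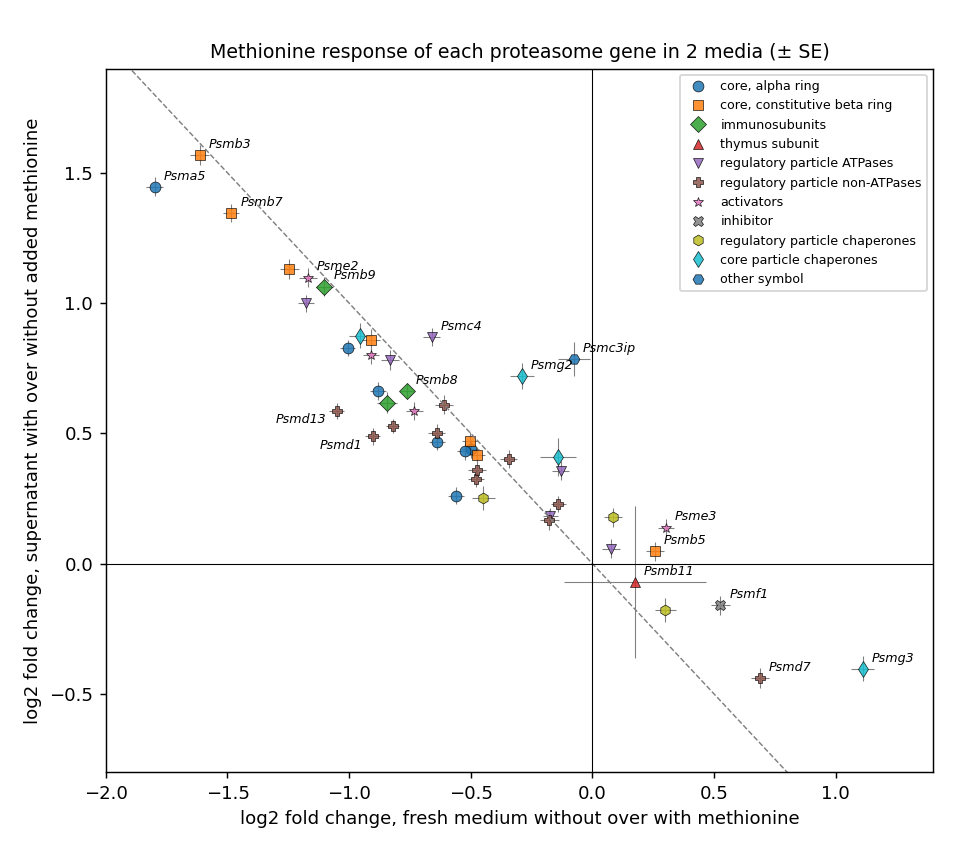
Log2 fold change of each member for methionine-free over complete medium (horizontal) and for supernatant with over without added methionine (vertical), with SE; the dashed line marks equal and opposite values. Most members lie near the line or below it at the upper left, among them Psma5 and Psmb3, and Psmc3ip, Psmg2, Psme3 and Psmg3 lie above it.

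The methionine effects in the 2 kinds of medium were also tested against each other in limma. Psmd13 rose by 0.59 with methionine in supernatant, 0.46 less than its response in fresh medium (SE 0.044, adjusted p 1.31e-10), and Psmd1 by 0.41 less. Psma5 (-0.35) and Psma4 (-0.30) led the alpha genes. Higher values in supernatant were found for Psmc3ip (0.71), Psmg3 (0.71), Psme3 (0.44) and Psmg2 (0.43). From FPKM, Psmd1, Psma4, Psme3 and Psmg2 were not called, and Psmd1 and Psma4 were not called with a replicate block either. Among immunosubunits, Psmb10 differed (-0.23, adjusted p 0.00126), though not from FPKM without the block (-0.28, adjusted p 0.64). Psmb8 also did (-0.10, adjusted p 0.0472), a call lost without any one of 11 libraries (-0.10 to -0.08, adjusted p 0.06 to 0.122), all but replicate 3 of methionine-free medium, replicates 1 and 3 of complete medium, replicate 3 of supernatant and replicate 2 of supplemented supernatant. The difference for Psmb9 was -0.04 (SE 0.051, adjusted p 0.557), and those for Psme1 and Psme2 were -0.11 and -0.07 (adjusted p 0.0552 and 0.242). Leaving out any one of 5 libraries called Psme1 (-0.15 to -0.12, adjusted p 0.00695 to 0.0455): replicate 3 of methionine-free medium, replicates 1 and 2 of complete medium and replicates 1 and 2 of supplemented supernatant.

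Supplemented supernatant against complete medium asked how far the addition brought the genes back. The core alpha genes stayed lower in 6 of 7 cases, beside 32.5% of all genes called lower. Of these alpha genes, Psma1, Psma2, Psma4, Psma6 and Psma7 were not called from FPKM in limma (adjusted p 0.358 to 0.443). With the replicate block, Psma2 and Psma7 were not called (adjusted p 0.104 and 0.0604). Psma7 was lower by 0.08. That call was lost without replicate 0 or 2 of complete medium or replicate 3 of supplemented supernatant (-0.08 to -0.07, adjusted p 0.0666 to 0.0942). Psmd13 (-0.49), Psmd1 (-0.41), Psma5 (-0.31) and Psmb10 (-0.30) were lowest, and Psmg3 (0.57), Psme3 (0.46) and Psmg2 (0.39) highest. Psmb3 was higher by 0.11, but not called without replicate 2 of supplemented supernatant (0.06, adjusted p 0.136). From FPKM, 2 members were called higher and 3 lower here, and 11 and 14 with the replicate block. Over all 10944 genes tested in FPKM, 883 were called higher and 990 lower, and 2563 and 2943 with the block.

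Supernatant and methionine-free medium gave similar values for most members, and the median difference was 0.02. Psmb3 (0.15), Psme2 (0.14), Psmb8 (0.10) and Psme1 (0.10) were higher in supernatant. Psmc3ip (-0.36), Psmd9 (-0.14), Psmg3 (-0.13), Psmf1 (-0.13) and Psmc3 (-0.13) were lower. Of these, Psmb8 was not called without replicate 1 of methionine-free medium (0.09, adjusted p 0.0505). Psme1 was not called without any one of replicates 0, 1 and 2 of methionine-free medium and replicate 1 of supernatant (0.08 to 0.09, adjusted p 0.0719 to 0.0972). Psmd9 was not called without replicate 2 of either medium (-0.13 and -0.12, adjusted p 0.0547 and 0.0834). Psmg3 was not called without any one of 6 libraries (-0.14 to -0.11, adjusted p 0.0505 to 0.11): replicates 0, 2 and 3 of methionine-free medium and replicates 0, 1 and 3 of supernatant. In the FPKM table no member was called here in either direction, and with the replicate block 1 was called higher and 2 lower. Over all 10944 genes tested in FPKM, 21 were called higher and 16 lower, and 606 and 826 with the block.

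Other genes of the pathway were read from 5 lists, and their counts stand beside the same backgrounds: 43.3% of all genes rose and 42.3% fell in methionine-free medium. The lists of partners, ubiquitin genes and MHC class I genes had shares near these in both directions. Of 11 proteasome partners, 5 rose and 5 fell in methionine-free medium, with a median of 0.00. The deubiquitinase gene Uchl5 had 3001, 2914, 3218 and 3377 reads in supplemented supernatant, 1271, 1149, 1243 and 1216 in supernatant, 1217, 1198, 1215 and 1300.1 in methionine-free medium, and 3052, 2869, 2647 and 2971 in complete medium. Its docking subunit gene Adrm1, a ubiquitin receptor, had 3902, 3634, 4013 and 3740.2 reads in supplemented supernatant, 4655, 5154, 4690.1 and 4598 in supernatant, 4816, 4697, 4799.8 and 5017 in methionine-free medium, and 3070.4, 3136, 3091 and 2870.0 in complete medium. The docking gene rose by 0.67 and the enzyme gene fell by 1.22, which are opposite directions for a pair that binds together. Pomp, the maturation factor of the core, had 2960.2, 3227, 3145 and 2752 reads in supplemented supernatant, 3279.9, 2956, 3318 and 3244 in supernatant, 3157, 3105, 3152 and 3442 in methionine-free medium, and 4181, 4236, 3938 and 4181 in complete medium. It fell by 0.36, and the addition gave -0.08 (adjusted p 0.0724), which was not called. AI314180, the mouse form of the adaptor Ecm29, and Txnl1, a thioredoxin of the regulatory particle, fell by 0.59 and 0.49 and rose by 0.66 and 0.65 with the addition. Zfand5, which activates proteasomes, rose by 0.59, and the ligase gene Ubr4 fell by 0.21 with the addition.

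Of 12 factors that control proteasome genes or act on those factors, 7 rose and 4 fell in methionine-free medium. With methionine added to supernatant 5 rose and 6 fell, beside 41.8% of all genes in each direction. Nfe2l1 encodes NRF1, which raises proteasome genes when proteasomes fail. Nfe2l1 had 12565, 12864, 11986 and 11804 reads in supplemented supernatant, 14274, 15126, 14602 and 14979.9 in supernatant, 15116, 15163, 15098 and 14540.3 in methionine-free medium, and 4414, 4490.2, 4366 and 4499 in complete medium. It rose by 1.75 (SE 0.029, adjusted p 5.11e-32) in methionine-free medium and by 1.73 in supernatant. The addition lowered it by 0.26, and it stayed 1.47 above complete medium. Of the members, 37 of 48 fell in methionine-free medium, beside 42.3% of all genes, and a link to Nfe2l1 was not tested. Nfe2l2, which encodes NRF2, and Mafk, a partner of both factors, rose by 0.98 and 1.04, and Mafk fell by 0.41 with the addition. The small Maf gene Maff had 94.3, 90.5, 134 and 101 reads in supplemented supernatant, 83.8, 76.2, 82.7 and 68.4 in supernatant, 47.5, 48.4, 48.2 and 58.1 in methionine-free medium, and 253, 207, 242 and 206 in complete medium. It fell by 2.14, and Foxo4 fell by 0.80. Ngly1, whose enzyme activates NRF1, fell by 0.67 and rose by 0.58 with the addition, and Ddi2, the protease that cuts NRF1, rose by 0.50 and fell by 0.48. Foxo4 rose by 0.47 with the addition.

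Among 17 genes of ubiquitin supply and shuttling, 8 rose and 8 fell in methionine-free medium. Uba1, the main ubiquitin-activating enzyme, had 28337, 28946, 29697 and 28248 reads in supplemented supernatant, 17527, 17976, 17962 and 17968 in supernatant, 16488, 16676, 16971 and 16593 in methionine-free medium, and 29975, 29590.2, 29983 and 29262 in complete medium. It fell by 0.83 and rose by 0.69 with added methionine. The shuttle gene Ubqln2 rose by 0.80 and the chain-elongating ligase gene Ube4b fell by 0.59. Faf1, an adaptor of the segregase VCP, rose by 0.83 with the addition, and Ubqln2 fell by 0.76.

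Of 12 genes of MHC class I presentation, 6 rose and 5 fell in methionine-free medium, with a median of 0.14. H2-K1, a class I heavy chain, had 68010.4, 68466, 69714 and 65039 reads in supplemented supernatant, 112055, 116038, 113249 and 112152 in supernatant, 106802, 106517, 106529 and 110842 in methionine-free medium, and 66379.8, 64739, 65095 and 63567 in complete medium. B2m, the light chain, had 72594, 73512, 73184 and 70115 reads in supplemented supernatant, 49642, 49954, 49704 and 49110.4 in supernatant, 46003, 45219, 45970.4 and 48316 in methionine-free medium, and 77702, 74349, 75711 and 74459 in complete medium. The heavy chain gene rose by 0.73 and the light chain gene fell by 0.70. H2-D1 rose by 0.50 and the chaperone gene Calr fell by 0.63. Of the peptide transporter, Tap1 fell by 0.29 and Tap2 rose by 0.28. Nlrc5, the transactivator of class I genes, rose by 0.32, with 19609 to 20676 reads in methionine-free medium, against 15943 to 16509.7 in complete medium. Canx, another chaperone, rose by 0.33 with added methionine.

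Of 10 interferon and IRF factors, 4 rose and 6 fell in methionine-free medium. Irf1, which switches on immunosubunit genes, rose by 0.26, with 8772 to 9126 reads in methionine-free medium, against 7169 to 7656 in complete medium. Ifngr2, a chain of the interferon gamma receptor, had 571, 546, 553 and 552 reads in supplemented supernatant, 1206, 1252, 1251 and 1235 in supernatant, 1209, 1131, 1097 and 1117 in methionine-free medium, and 503, 609.6, 573 and 512 in complete medium. Irf8 had 4083, 3974, 3915 and 3854 reads in supplemented supernatant, 1617, 1697, 1765 and 1843 in supernatant, 1114, 1057, 1068 and 1022 in methionine-free medium, and 3604, 3835, 3759 and 3658 in complete medium. They changed by 1.05 and -1.80. Irf9 rose by 0.80 and Irf7 fell by 0.76, and with added methionine Irf9 fell by 0.81.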

How the data were processed

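RNA of 16 libraries, 4 per medium, was sequenced. The authors deposited depth-normalized gene counts (a signal scaled between libraries) and FPKM values. FastQC 0.11.3, Bowtie2 2.2.1, TopHat2 2.0.13, Cuffdiff 2.2.1 and Cufflinks, and the builds mm10 and GRCm38, are named per the submitters' processing notes; the counting tool, annotation and strand setting are not given in the sources used here.

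Depth-normalized values were taken as log2(value + 1) where a gene's mean was 10 or more (12469 genes, with 4690 others not tested) and fitted with limma 3.58.1 in R 4.3.3, with 4 group means and a variance trend. P-values were adjusted over all of them. Once rescaled, 100% of depth-normalized values were whole reads within 0.001, and edgeR 4.0.16 was run on those reads for 15 libraries (5401 genes higher and 5169 lower in methionine-free against complete medium). Replicate 1 of methionine-free medium was left out there because a check of its recovered reads failed. Ratios were tested by exact permutation in SciPy 1.17.1. Same-numbered libraries did not deviate together (correlations -0.07 to 0.07), though they did in FPKM (0.13 to 0.63), so FPKM was also fitted with a replicate block. The scripts were tested on simulated data.

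Genes with every library's value were the catalytic, immune and PA28 genes and, per role and comparison, the 2 highest and 2 lowest called changes; from the pathway lists, the 2 highest and 2 lowest in the first 3 comparisons, with Nfe2l1, Pomp, Irf1 and Nlrc5; 2 genes that this rule names are not reported here. The members and lists were chosen with earlier results of these data known. Gene positions are from GENCODE vM21 and promoters from RefSeq.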

Additional observations from a re-analysis of the deposited data

Results flagged for a closer look

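In 13 of 192 groups of 4 libraries, 1 library stood apart from the other 3 by more than Dixon's 95% critical value for the gap over the range; chance flags about 1 group in 20. In supplemented supernatant, Psma7 had 6409 reads in replicate 3 against 6753 to 6798 in the others and Psmd14 had 5661 reads in replicate 2 against 5123 to 5177 in the others. In supernatant, Psmb5 had 3951 reads in replicate 2 against 4049 to 4061 in the others, Psmc2 had 4768 reads in replicate 2 against 4957 to 4996 in the others, Psmd3 had 4775 reads in replicate 1 against 4471 to 4499 in the others, Psmd11 had 3519.9 reads in replicate 3 against 3679 to 3701 in the others, Psme1 had 6015 reads in replicate 1 against 5700.3 to 5751 in the others and Psmg2 had 1174 reads in replicate 1 against 1032 to 1039 in the others. In methionine-free medium, Psmb6 had 3249.7 reads in replicate 3 against 3185 to 3195 in the others, Psmd14 had 3671 reads in replicate 0 against 3802 to 3826 in the others, Psme1 had 5827 reads in replicate 3 against 5213 to 5294 in the others and Psme4 had 3856 reads in replicate 1 against 3635 to 3661 in the others. In complete medium, Psmd13 had 6429.8 reads in replicate 3 against 6098 to 6139 in the others.

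The effect of methionine differed between supernatant and fresh medium for 28 members in limma's test of the difference (adjusted p below 0.05 over all genes). From FPKM, 2 members were called above 0 and 2 below, beside 339 and 400 of 10944 genes. With the replicate block these were 7 and 4 members, beside 1968 and 1880 genes. In depth-normalized reads, 27.6% of all genes were called higher and 25.0% lower. On the log2 scale, the effect in supernatant less that in fresh medium was above 0 for 12 members: 0.71 for Psmc3ip, 0.71 for Psmg3, 0.44 for Psme3, 0.43 for Psmg2, 0.37 for Psmf1, 0.31 for Psmb5, 0.27 for Psmg4, 0.26 for Psmd5, 0.25 for Psmd7, 0.23 for Psmc5, 0.21 for Psmc4 and 0.13 for Psmc2. It was below 0 for 16 members: -0.46 for Psmd13, -0.41 for Psmd1, -0.35 for Psma5, -0.30 for Psma4, -0.29 for Psmd2, -0.23 for Psmb10, -0.22 for Psma1, -0.20 for Psmd10, -0.18 for Psmc1, -0.18 for Psma2, -0.17 for Psma6, -0.15 for Psmd8, -0.15 for Psme4, -0.14 for Psmd14, -0.14 for Psmb7 and -0.10 for Psmb8. The difference was not called for Psmb7 without replicate 0 of complete medium (-0.11, adjusted p 0.0561), for Psmb8 without any one of 11 libraries (-0.10 to -0.08, adjusted p 0.06 to 0.122), for Psmc2 without any one of 5 (0.08 to 0.13, adjusted p 0.0576 to 0.117: replicate 2 of each medium and replicate 3 of methionine-free medium) or for Psmg4 without any one of 6 (0.22 to 0.25, adjusted p 0.0596 to 0.0813: replicate 0 of supplemented supernatant, replicates 2 and 3 of supernatant, replicates 0 and 3 of methionine-free medium and replicate 3 of complete medium).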

How the results depend on the processing

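In all 6 comparisons the counts of members called stayed within 1.5 times the reported count with a pseudocount of 5, no filter, total-read scaling, quantile normalization, a replicate block and edgeR. From FPKM, members called higher were 4 in methionine-free against complete medium, 4 in supernatant against complete medium (4 with a replicate block), 2 in supplemented supernatant against complete medium, 0 in supernatant against methionine-free medium (1 with the block) and 2 for the difference of effects (7 with the block). Members called lower were 1 with methionine added to supernatant (2 with the block), 3 in supplemented supernatant against complete medium, 0 in supernatant against methionine-free medium (2 with the block) and 2 for the difference of effects (4 with the block). Over the 10944 genes tested in FPKM, those called higher were 2856, 2747 (3911 with the block), 883, 21 (606) and 339 (1968) in that order of comparisons. Those called lower were 2416 (3776 with the block), 990, 16 (826) and 400 (1880), in the order given for lower members. The cause of the lower counts was not tested. Leaving out each library gave 2 to 5 higher and 3 to 6 lower in supernatant against methionine-free medium, with 2 without replicate 1 and 3 without replicate 2 of methionine-free medium. In supplemented supernatant against complete medium it gave 14 to 15 higher and 17 to 21 lower, and for the difference of effects 10 to 13 and 14 to 19.

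Total-read scaling turned the sign of Psmc5 (0.0289) and Psmd11 (0.0196) in methionine-free against complete medium, of Psmc5 (0.10) and Psmd11 (0.0631) in supernatant against complete medium and of Psmb5 (-0.0830) with methionine added. Quantile normalization turned Psme3 (-0.0208) with methionine added. From FPKM, the log2 ratio of Psmb8 to Psmb5 changed by -0.93 in methionine-free against complete medium, 0.57 with methionine added and 0.0454 in supernatant against methionine-free medium, and that of Psmb10 to Psmb7 by 0.46, -0.67 and 0.0825.

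The replicate block, for which only the number is shared, changed 2 of 288 member calls: Psmb8 lost the difference of effects (-0.10, adjusted p 0.0579) and Psmb4 was called lower in supplemented supernatant against complete medium (-0.08, adjusted p 0.047). Over 282 results for members and comparisons, FPKM lost 89 calls, and with the block it lost 41 and added 1. edgeR lost 3 and added 2 over 288. DESeq2 was not run. At 25.8 to 42.3 M reads, Psmb11, at a mean of 20.6 reads, is the member that depth limits most.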
